A study of Mus musculus with 10 samples.

Results

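The integrated stress response regulators described here are 10 genes, Atf4, Ddit3, Trib3, Atf3, Atf5, Chac1, Sesn2, Ppp1r15a, Nupr1 and Cebpg, picked by gene symbol from the 18380 genes listed in either of the deposited expression tables. All 10 were found in both tables, and all 10 passed the filter on low values in each (10809 genes tested in the T-5224 table and 10842 in the SB431542 table). They were picked with their response to both inhibitors already known, so their levels and fold changes are given as a description, without a test.

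RNA-seq was performed on ASZ001, a single established murine basal cell carcinoma (BCC) line, to ask which genes depend on AP-1 and on TGFß signaling in resistant BCC cells. Cells of all groups were kept for 24 h in a low-serum medium (0.2% FBS) with 0.05 mM calcium chloride. The AP-1 inhibitor T-5224 was given at 20 µM (n = 2) and compared with its own vehicle control, DMSO (n = 2), and the ALK5 inhibitor SB431542, which blocks the TGFß type I receptor, was given at 10 µM (n = 3) and compared with a separate set of DMSO libraries (n = 3). The groups carried no other treatment or genetic change that the labels give, each inhibitor was used at a single dose and time, and the doses differ between the inhibitors, so their values are set side by side without a test between them.

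In the integrated stress response, kinases that sense unfolded protein, missing amino acids, double-stranded RNA or low heme phosphorylate the translation initiation factor eIF2alpha. General translation then slows, while the mRNA of the transcription factor ATF4 is translated more efficiently through upstream open reading frames. ATF4 pairs with C/EBP-family and related bZIP proteins at C/EBP-ATF response elements, induces CHOP (the product of Ddit3) and genes of amino acid supply, and through GADD34 (the product of Ppp1r15a) and TRIB3 feeds back on the pathway.

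Because several members share a short response element at their promoters, the windows that hold a searched motif are shown first. RefSeq promoter windows (GRCm38.p6, 250 bases before to 50 bases after a start) were found for 10 of the 10 members, in 11 windows, since Atf5 has a pair of them. The core of the C/EBP-ATF response element was searched as TGATGNAA on both strands and was found in the windows of 4 members, against 3.97% of the 32851 windows and 4.51% of the 27025 genes in the RefSeq table. The cAMP response element, TGACGTCA, was found in Ppp1r15a (1.79% of all windows), and the AP-1 element, searched as TGANTCA, in Ddit3 (7.81% of all windows). Capitals mark the matched motif, and no member window held more than 1 match or any overlap between motifs. Each sequence runs 5′ to 3′ on the strand of its gene. The windows are Trib3 (chr2:152344011-152344310, minus strand), Atf3 (chr1:191183284-191183583, minus strand), Chac1 (chr2:119350992-119351291, plus strand), Nupr1 (chr7:126625421-126625720, minus strand), Ppp1r15a (chr7:45526219-45526518, minus strand) and Ddit3 (chr10:127290543-127290842, plus strand).
Trib3: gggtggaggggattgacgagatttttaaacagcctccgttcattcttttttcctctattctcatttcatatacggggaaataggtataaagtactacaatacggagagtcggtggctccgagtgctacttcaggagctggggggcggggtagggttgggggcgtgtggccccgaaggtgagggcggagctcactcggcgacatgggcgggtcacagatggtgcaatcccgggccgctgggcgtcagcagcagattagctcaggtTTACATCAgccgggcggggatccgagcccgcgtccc
Atf3: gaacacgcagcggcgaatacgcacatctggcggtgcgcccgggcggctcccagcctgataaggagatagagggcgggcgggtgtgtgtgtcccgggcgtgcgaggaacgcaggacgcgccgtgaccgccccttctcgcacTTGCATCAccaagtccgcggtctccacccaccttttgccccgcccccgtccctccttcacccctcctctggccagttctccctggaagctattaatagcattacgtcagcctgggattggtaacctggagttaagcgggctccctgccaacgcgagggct
Chac1: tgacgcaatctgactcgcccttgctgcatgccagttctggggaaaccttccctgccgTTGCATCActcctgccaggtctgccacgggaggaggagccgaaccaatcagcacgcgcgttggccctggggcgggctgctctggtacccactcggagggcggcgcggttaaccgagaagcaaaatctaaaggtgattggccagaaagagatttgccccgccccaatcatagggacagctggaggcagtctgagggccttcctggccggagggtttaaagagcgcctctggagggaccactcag
Nupr1: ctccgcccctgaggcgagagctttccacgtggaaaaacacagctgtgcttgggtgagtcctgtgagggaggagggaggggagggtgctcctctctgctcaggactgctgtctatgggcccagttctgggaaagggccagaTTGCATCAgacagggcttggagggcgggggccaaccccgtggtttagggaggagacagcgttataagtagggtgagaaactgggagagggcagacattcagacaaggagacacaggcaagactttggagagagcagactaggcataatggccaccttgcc
Ppp1r15a: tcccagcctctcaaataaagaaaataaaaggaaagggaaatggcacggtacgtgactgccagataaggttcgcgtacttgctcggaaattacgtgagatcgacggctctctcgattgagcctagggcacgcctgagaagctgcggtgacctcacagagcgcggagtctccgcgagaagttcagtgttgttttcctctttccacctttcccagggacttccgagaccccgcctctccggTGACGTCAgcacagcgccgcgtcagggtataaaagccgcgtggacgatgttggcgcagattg
Ddit3: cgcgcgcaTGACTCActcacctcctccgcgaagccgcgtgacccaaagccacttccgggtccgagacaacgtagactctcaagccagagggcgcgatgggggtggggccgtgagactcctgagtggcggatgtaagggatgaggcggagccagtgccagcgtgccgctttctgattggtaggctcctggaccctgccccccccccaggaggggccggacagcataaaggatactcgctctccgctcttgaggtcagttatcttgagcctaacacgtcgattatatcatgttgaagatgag
The response element core lay on the strand opposite to the gene in all 4 windows, so it reads as TTGCATCA in Atf3, Chac1 and Nupr1 and as TTACATCA in Trib3. In Atf3 and Nupr1 it ran from base -110 to base -103 relative to the start, and in Chac1 from -193 to -186. In Trib3 it lay past the start, at bases 15 to 22. The element in Ppp1r15a ended 5 bases before the start (-12 to -5), and the element in Ddit3 lay at the far end of its window (-242 to -236). These matches are letters in a window of 300 bases, and nothing about binding follows from them or from their absence in the windows of Atf4, Atf5, Sesn2 and Cebpg.

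Expression is given as RPKM (reads per kilobase of transcript, scaled to the sequencing depth of the library), so levels can be compared between genes per length. The libraries held between 31.9 and 51.4 M reads in the T-5224 table and between 36.1 and 49.2 M reads in the SB431542 table. The lowest member value, that of Atf3 in a DMSO library of the T-5224 experiment, rests on about 140 reads (counting error 8.35%). The labelled line was checked against the keratinocyte markers Krt5, Krt14, Trp63, Cdh1 and Itga6, and all 5 were present in all 10 libraries. DMSO replicate 1 of the SB431542 experiment stood apart from the other controls: its log2 values differed from theirs with an SD of 0.272, against 0.161 and 0.190 for replicates 2 and 3, and its ribosomal transcript Rn45s was at 770 RPKM against 2101 and 2155 RPKM. For this experiment the members' fold changes are given with and without it.

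With T-5224, every member lay higher in each treated library than in each DMSO library, and 9 of the 10 were over 2-fold higher. The summed level of the 10 genes was 166.6 and 168.1 RPKM in the DMSO libraries and 2475 and 2426 RPKM in the T-5224 libraries, a share of 0.0484% and 0.0488% of all RPKM in DMSO and of 0.683% and 0.688% with T-5224. The median log2 fold change (T-5224 over DMSO, on log2(RPKM + 0.5)) was 4.17 over the members and 0.003 over all genes tested. A call required a change of over 2-fold and an adjusted p under 0.05 (limma, Benjamini-Hochberg over all genes tested). By that rule 9 of 10 members were called higher and 0 lower, beside 10.4% and 10.6% of all genes. Without the limit on fold change the count was 10, beside 40.3% of all genes. Groups that did not overlap, T-5224 above DMSO, were seen in 10 of 10 members, beside 45.1% of all genes. Nothing is read from these counts, since the members were picked on this contrast.

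**Figure D1:**
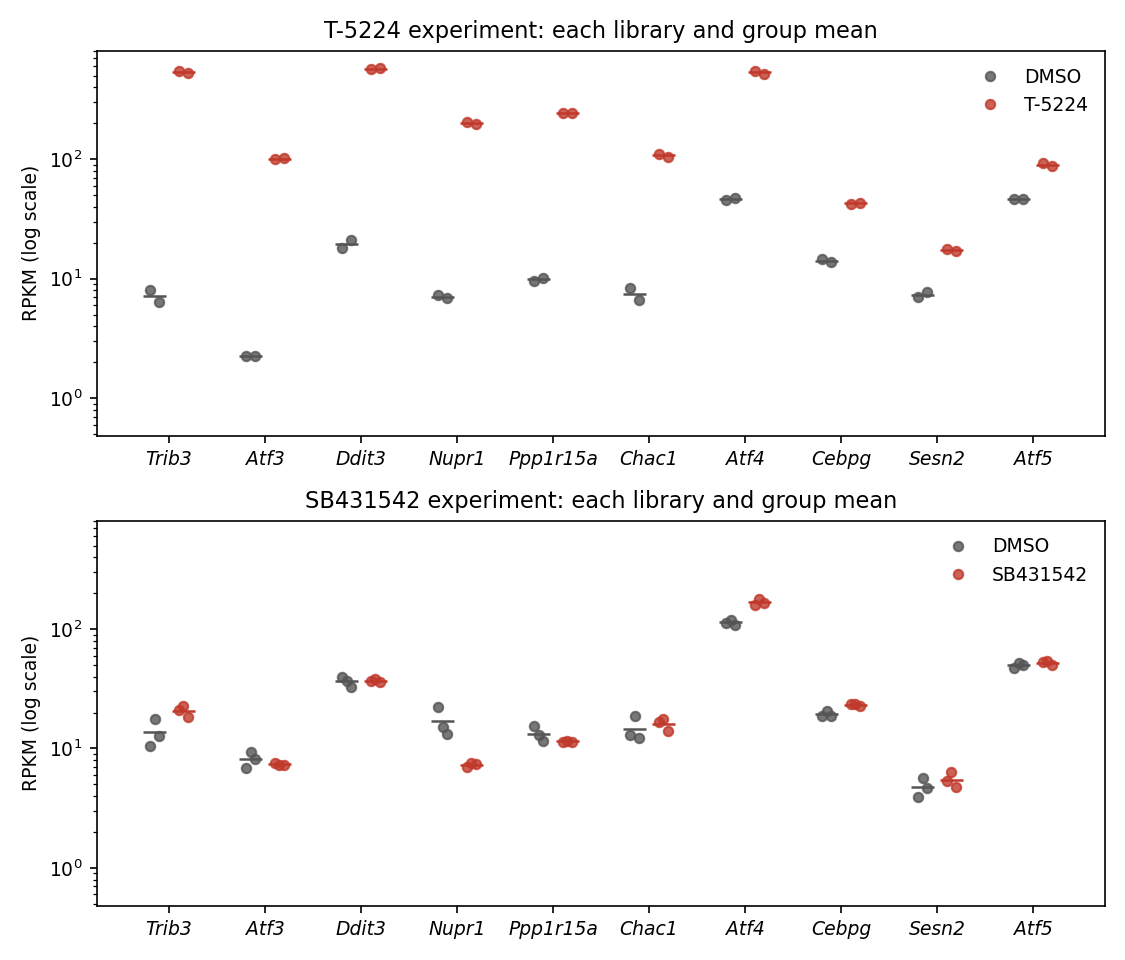
RPKM of the 10 members (log scale) in every library, with DMSO in gray, the inhibitor in red and a bar at each group mean; T-5224 experiment above (n = 2 per group), SB431542 experiment below (n = 3 per group). In the upper panel the red points of all 10 genes lie above the gray points, while in the lower panel the groups overlap for 5 of the 10 genes.

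Among the factors at the centre of the pathway, Atf4 (mm9 chr15:80085614-80087970, plus strand), the bZIP activator whose translation eIF2alpha phosphorylation favors, was at 45.2 and 47.1 RPKM in DMSO and at 545 and 521 RPKM with T-5224. The groups were far apart, and the fold change was 3.52 ± 0.05 (log2 ± SE). Atf4 moved from the 1570th to the 51st highest level among the genes tested. Ddit3 (chr10:126727830-126733344, plus strand), which encodes CHOP, a bZIP factor that pairs with C/EBP proteins and is linked to cell death under lasting stress, was at 18.0 and 20.9 RPKM in DMSO and at 570.3 and 577 RPKM with T-5224. Its fold change was 4.85 ± 0.07 (log2 ± SE), and it held the highest level of all members in the treated cells. The ratio of Ddit3 to Atf4 lay between 0.400 and 0.443 in DMSO and between 1.05 and 1.11 with T-5224, so the order of these transcripts was inverted.

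The remaining bZIP factors spanned most of the range. Atf3 (chr1:192994175-193007219, minus strand), a stress-induced factor that is itself a target of ATF4, was the lowest member in DMSO, at 2.26 and 2.24 RPKM, and was at 100.6 and 101 RPKM with T-5224. This is a log2 fold change of 5.20 ± 0.06 (SE), the 7th highest of the 10809 genes. Cebpg (chr7:35831441-35841522, minus strand), which encodes a C/EBP protein that forms heterodimers with ATF4, was at 14.6 and 13.7 RPKM in DMSO and at 42.1 and 43.0 RPKM with T-5224 (log2 fold change 1.56 ± 0.06). Atf5 (chr7:52067627-52072028, minus strand), a relative of ATF4 that is also controlled by upstream open reading frames, was at 46.5 and 46.5 RPKM in DMSO and at 92.7 and 87.7 RPKM with T-5224. Its libraries did not overlap, but at a log2 fold change of 0.95 ± 0.05 it fell just short of 2-fold and stayed there when any library was left out (0.91 to 0.99). Atf5 and Atf4 were at like levels in DMSO, with a ratio of 0.987 to 1.03, and with T-5224 the ratio was 0.168 to 0.170.

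Feedback regulators were among the members with the greatest distance between groups. Trib3 (chr2:152163158-152169768, minus strand), which encodes a pseudokinase that binds AKT and restrains ATF4 and CHOP, was at 7.98 and 6.31 RPKM in DMSO and at 548 and 531 RPKM with T-5224. Its log2 fold change of 6.15 ± 0.09 was exceeded by a single gene of the 10809 tested, and it ranged from 5.99 to 6.31 with each library left out. Ppp1r15a (chr7:52778286-52781638, minus strand), whose product GADD34 brings protein phosphatase 1 to eIF2alpha, was at 9.50 and 10.2 RPKM in DMSO and at 243 and 245 RPKM with T-5224 (log2 fold change 4.56 ± 0.06). Nupr1 (chr7:133766763-133770524, minus strand), a small stress-induced chromatin protein, was at 7.23 and 6.91 RPKM in DMSO and at 206 and 198 RPKM with T-5224 (4.74 ± 0.06). All 3 were at 10.2 RPKM or less in DMSO and at 198 RPKM or more with T-5224, with replicates close together.

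The metabolic effectors differed from each other in size. Chac1 (chr2:119176965-119180117, plus strand), a gamma-glutamylcyclotransferase that degrades glutathione, was at 8.30 and 6.60 RPKM in DMSO and at 110.3 and 104 RPKM with T-5224 (log2 fold change 3.77 ± 0.09). Sesn2 (chr4:132047947-132066416, minus strand), a leucine sensor that restrains mTORC1, was at 6.98 and 7.69 RPKM in DMSO and at 17.7 and 17.0 RPKM with T-5224 (1.19 ± 0.07). Both groups of libraries were apart in either gene, and Sesn2 was the called member closest to the limit of 2-fold.

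Sorted by level with T-5224, Ddit3 (573.6 RPKM) came first, followed by Trib3 (539 RPKM) and Atf4 (533 RPKM), whose libraries overlapped, and then by Ppp1r15a, Nupr1, Chac1, Atf3, Atf5, Cebpg and Sesn2, with no overlap between neighbours. In DMSO the order was another one. Atf5 and Atf4 came first and overlapped, then Ddit3, Cebpg and Ppp1r15a, while Chac1, Sesn2, Trib3 and Nupr1 overlapped their neighbours between 6.31 and 8.30 RPKM, and Atf3 came last.

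**Figure D2:**
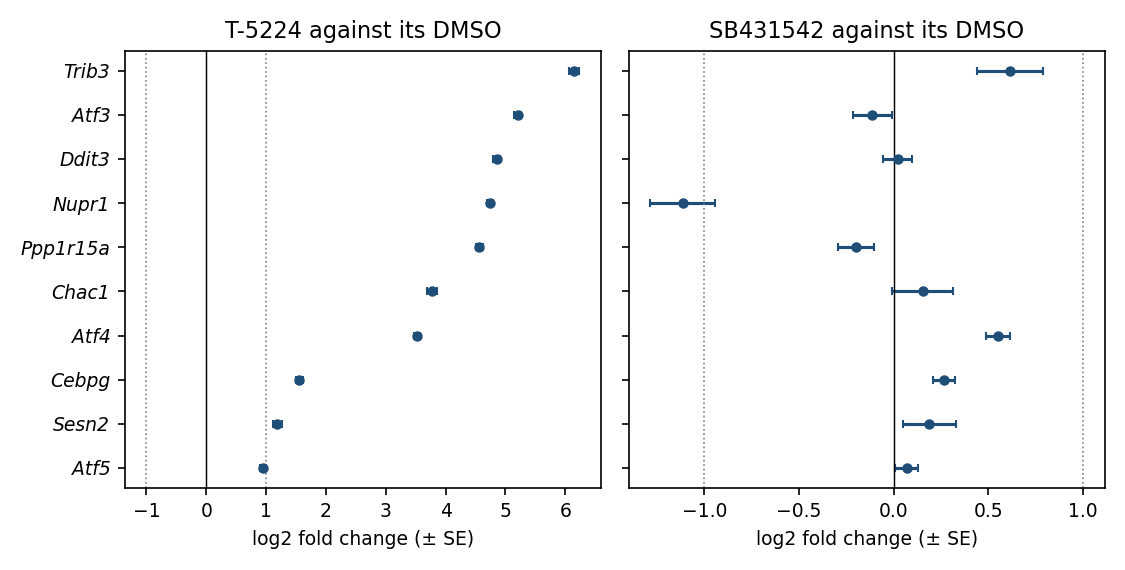
Log2 fold change with its SE (bars) of each member with T-5224 (left) and SB431542 (right), each against its own DMSO libraries, with dotted lines at 2-fold; the horizontal scales differ. With T-5224 the points run from 0.95 (Atf5) to 6.15 (Trib3), and with SB431542 from -1.12 (Nupr1) to 0.61 (Trib3).

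The levels of cell type markers moved in the same libraries. The summed level of the 5 keratinocyte markers was 11700 to 12350 RPKM in DMSO and 1564 to 1624 RPKM with T-5224, through Krt5 (5916 to 6087 against 579 to 599 RPKM) and Krt14 above all, while Trp63 was at 73.6 to 76.2 RPKM in DMSO and at 48.7 to 50.3 RPKM with T-5224. The 3 leukocyte markers listed in this table (of 4) summed to 16.7 to 18.6 RPKM in DMSO and 32.7 to 33.2 RPKM with T-5224, nearly all of it Cd68, while the defining marker Ptprc was at most 0.012 RPKM. The 4 fibroblast markers listed (of 5) summed to 2.34 to 2.49 RPKM in DMSO and 2.61 to 2.83 RPKM with T-5224, most of it Dcn. Pdgfra was at 0.450 to 0.580 RPKM in DMSO and at 0.116 to 0.133 RPKM with T-5224, and Col1a1 was at most at 0.020 RPKM. The 2 endothelial markers listed (of 3) summed to 10.7 to 11.8 RPKM in DMSO and 4.11 to 4.67 RPKM with T-5224, nearly all of it Pecam1, with Cdh5 at most at 0.013 RPKM. The T-5224 libraries differed in Rn45s (1862 and 5184 RPKM), while the members' values in them lie close together. Fewer cells of a state and less RNA per cell cannot be told apart in bulk samples, and the part of these shifts in the members' levels was not tested.

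**Figure D3:**
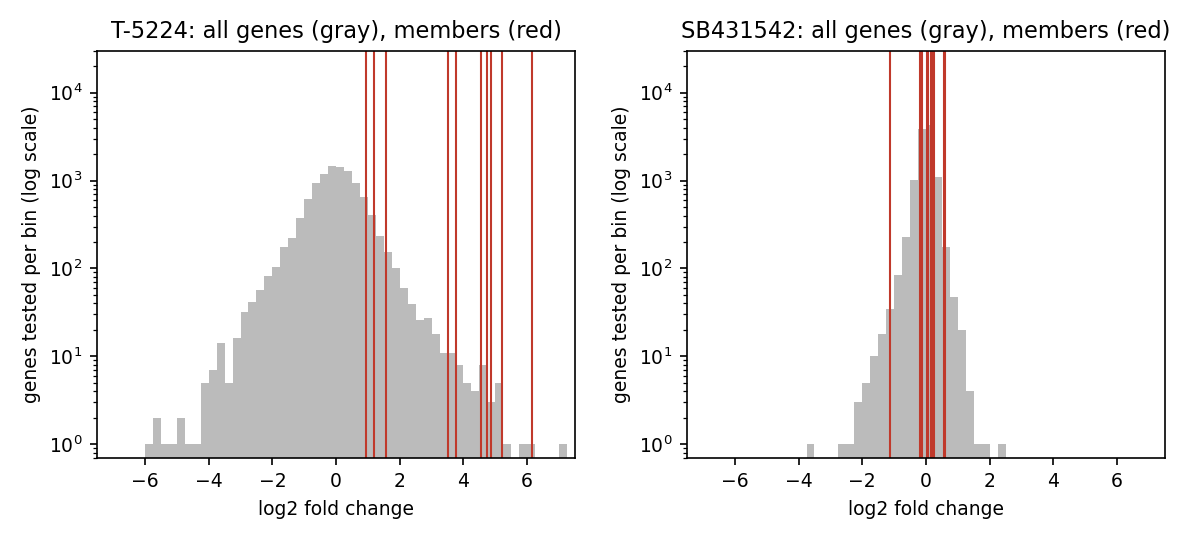
Histogram of the log2 fold changes of all genes tested (gray, count per bin on a log scale), with a red line at each of the 10 members, for T-5224 (left) and SB431542 (right). With T-5224, 7 of the 10 lines stand at 3.52 or above in the thin right tail; with SB431542 all lines but that of Nupr1 stand between -0.20 and 0.61.

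With SB431542, the members did not move together. The summed level was 273.1 to 309.0 RPKM in DMSO and 336.0 to 367.1 RPKM with SB431542, and the median log2 fold change was 0.11 over the members and 0.008 over all genes. By the 2-fold rule, 0 members were called higher and 1, Nupr1, lower, beside 0.231% and 0.581% of all genes. At an adjusted p under 0.05 without a limit on fold change (limma), 3 members were higher and 1 lower, beside 10.2% and 10.0% of all genes. Groups did not overlap in 3 members with SB431542 above (23.9% of all genes) and in 2 with SB431542 below (21.3% of all genes). As with T-5224, nothing is read from these counts, since the members were picked with this contrast known.

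The members that lay higher with SB431542 in all libraries were Atf4, Trib3 and Cebpg. Atf4 was at 112.1, 120.2 and 109 RPKM in DMSO and at 159, 178 and 164 RPKM with SB431542, a log2 fold change of 0.55 ± 0.06 (SE). Trib3 was at 10.5, 17.8 and 12.8 RPKM in DMSO and at 21.0, 22.9 and 18.5 RPKM with SB431542 (0.61 ± 0.18), and its highest DMSO library came close to its lowest treated library. Cebpg was at 18.7, 20.6 and 18.7 RPKM in DMSO and at 23.6, 23.6 and 22.7 RPKM with SB431542 (0.26 ± 0.06). Without DMSO replicate 1 the log2 fold changes were 0.54 for Atf4, 0.45 for Trib3 and 0.24 for Cebpg. These distances were small beside those seen with T-5224, an inhibitor at another dose with its own controls.

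Nupr1 lay on the other side. It was at 22.3, 15.0 and 13.2 RPKM in DMSO and at 6.97, 7.55 and 7.43 RPKM with SB431542, so that no library overlapped, and its log2 fold change was -1.12 ± 0.17 (SE), the 51st lowest of 10842. The highest of the DMSO values is that of replicate 1, the library that stood apart. Without it the log2 fold change of Nupr1 was -0.90, and no member was called. Ppp1r15a was at 15.3, 12.9 and 11.6 RPKM in DMSO and at 11.4, 11.6 and 11.4 RPKM with SB431542 (-0.20 ± 0.10), with barely separate groups. Its highest DMSO value is again that of replicate 1, and without that library the log2 fold change was -0.10.

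The other 5 members overlapped between groups. Ddit3 was at 40.0, 36.6 and 33.0 RPKM in DMSO and at 36.9, 38.1 and 35.9 RPKM with SB431542 (0.02 ± 0.07). Its highest control is DMSO replicate 1, without which 2 of the 3 treated libraries lay above both controls and the log2 fold change was 0.09. The ratio of Ddit3 to Atf4 was 0.303 to 0.357 in DMSO and 0.214 to 0.232 with SB431542, the opposite direction to that with T-5224. Atf3 (6.82 to 9.26 RPKM in DMSO), Atf5 (47.3 to 52.4), Chac1 (12.2 to 18.7) and Sesn2 (3.92 to 5.64) had log2 fold changes between -0.11 and 0.19. Without DMSO replicate 1 these were -0.22 for Atf3, whose groups then did not overlap, 0.03 for Atf5, 0.08 for Chac1 and 0.07 for Sesn2. Keratinocyte markers summed to 9178 to 9342 RPKM in DMSO and 6401 to 6855 RPKM with SB431542. This came through Krt5 (4809 to 5007 against 3855 to 4161 RPKM) and Krt14 (3896 to 4270 against 2270 to 2409 RPKM). Trp63, Cdh1 and Itga6 overlapped their controls. Fibroblast markers summed to 2.34 to 2.46 RPKM in DMSO and 3.63 to 4.12 RPKM with SB431542, most of it Dcn. Col1a1 was lower, at 0.088 to 0.102 RPKM in DMSO and 0.027 to 0.061 RPKM with SB431542. Leukocyte markers summed to 7.03 to 10.5 and 7.72 to 8.35 RPKM. Pecam1, the endothelial marker listed, was at 5.23 to 6.57 and 2.60 to 2.83 RPKM. The part of these shifts in the members' levels was not tested.

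Side by side, 9 of the 10 members were higher in the DMSO libraries of the SB431542 table than in those of the T-5224 table, from 1.07 times in Atf5 to 3.59 times in Atf3, with Sesn2 at 0.648 times. Of the 10479 genes with a mean of at least 1 RPKM over the DMSO libraries, 48.6% were higher in the SB431542 table. The tables were normalized separately and no test was made between them. As listed, the highest DMSO level of each member in either table was below its lowest level with T-5224.

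The genes around the members were followed in 13 lists by role that hold 121 pathway genes outside the members, chosen with earlier results of these data known. With T-5224, 118 were tested, and 64 (54.2%) rose over 2-fold and 6 (5.08%) fell over 2-fold (limma, adjusted p under 0.05), beside 10.4% and 10.6% of all genes. Without the limit on fold change 94 rose and 16 fell, where 40.3% of all genes rose and 39.4% fell. The median log2 fold change was 1.19. Of the secreted factors below, 3 (Fgf21, Gdf15 and Stc2) passed the filter only through the T-5224 libraries and had to differ, and without them 61 of 115 rose over 2-fold.

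**Figure D4:**
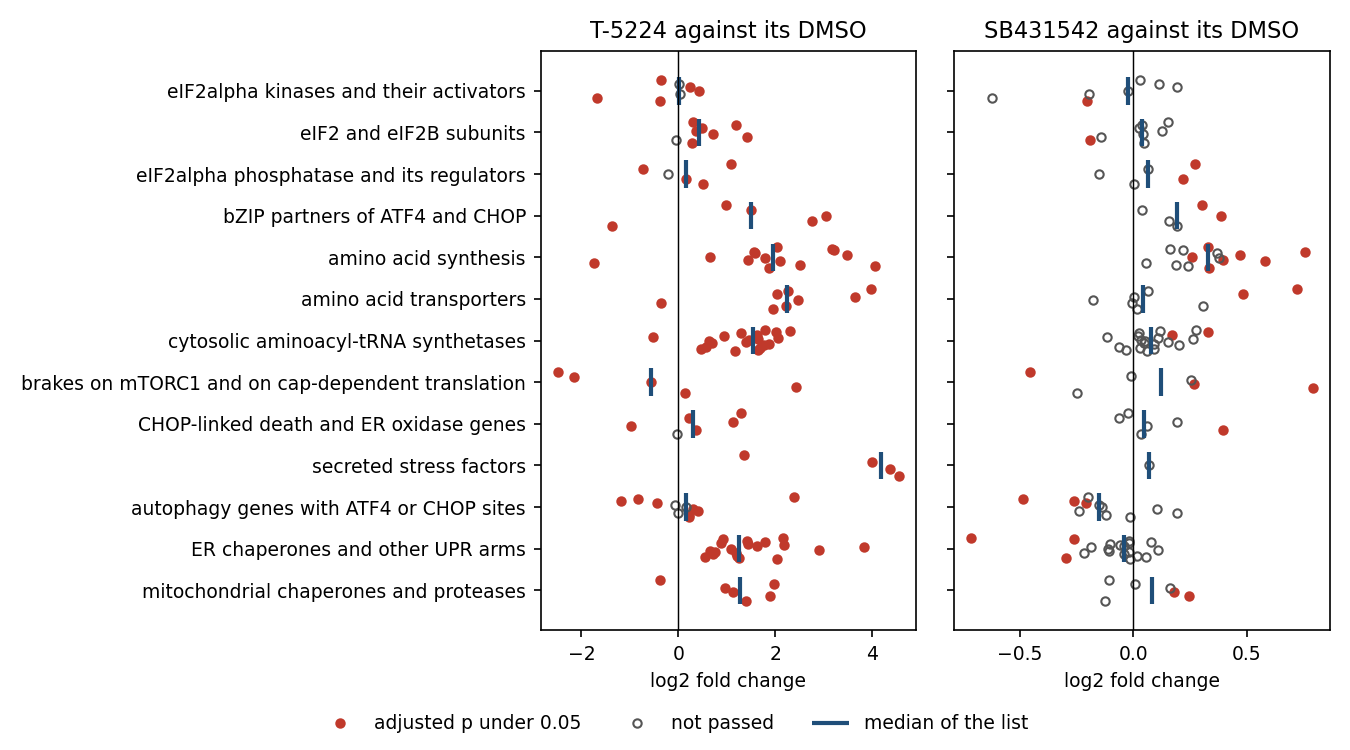
Log2 fold change of each pathway gene tested that is not a member, by list, with T-5224 (left) and SB431542 (right); filled red points passed an adjusted p under 0.05 (limma), open points did not, and blue bars mark the list medians. The horizontal scales differ. With T-5224 the medians run from -0.57 (brakes on mTORC1 and translation) to 4.17 (secreted factors), and that of the eIF2alpha kinases is 0.003. In the list of secreted factors, Fgf21, Gdf15 and Stc2 passed the filter only through the T-5224 libraries.

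Upstream of Atf4, the transcripts of the 4 eIF2alpha kinases did not share a direction. Eif2ak2 (PKR, which senses double-stranded RNA) fell from 11.4 ± 0.909 to 3.23 ± 0.560 RPKM (SD, n = 2; log2 fold change -1.68, limma adjusted p = 6.2e-08), and Eif2ak1 (HRI, the heme-regulated kinase) fell by 0.38 on the log2 scale (adjusted p = 8.3e-05). Eif2ak4 (GCN2, which senses uncharged tRNA) rose by 0.42 (adjusted p = 0.00172), and Eif2ak3 (PERK, which senses unfolded protein in the ER) was at 14.1 ± 0.590 and 14.4 ± 0.812 RPKM (0.03, adjusted p = 0.725). Kinase activity is not measured by these levels. Among the 8 subunits of eIF2 and eIF2B, 7 rose, with Eif2b3 (from 6.72 to 18.8 RPKM) and Eif2s2 (from 17.7 to 41.2 RPKM, group means) past 2-fold. Of the phosphatase list, Ppp1r15b, the constitutive counterpart of the member Ppp1r15a, rose from 15.0 ± 1.30 to 32.2 ± 1.88 RPKM (1.08, adjusted p = 9.92e-08), as the only gene past 2-fold among 5. Without DMSO replicate 2 its log2 fold change was 0.99, short of 2-fold. At any fold 3 genes of this list rose and 1, Ppp1cc, fell (-0.74, limma adjusted p = 1.13e-05). The level of Ppp1cc is uncertain as well.

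Partners of ATF4 and CHOP rose in 4 of 5 cases. Cebpd rose from 2.74 ± 0.153 to 26.1 ± 0.283 RPKM (SD, n = 2; log2 fold change 3.04, limma adjusted p = 2.68e-11), Cebpb from 45.8 ± 1.54 to 312 ± 1.13 RPKM (2.75) and Jdp2, a repressor that binds ATF and AP-1 sites, from 6.25 ± 0.343 to 18.4 ± 0.622 RPKM (1.49). Cebpa fell from 20.2 ± 1.30 to 7.58 ± 0.730 RPKM (-1.36, adjusted p = 3.45e-08).

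Genes of amino acid supply and tRNA charging, the classic targets of ATF4, rose in most cases. Of 14 genes of amino acid synthesis, 12 rose over 2-fold and 1 fell. Aldh1l2 (4.06) and Mthfd2 (3.48), enzymes of mitochondrial folate metabolism, and the serine enzyme Psph (3.21) had the highest log2 fold changes, and Asns, asparagine synthetase, rose from 107.3 ± 6.82 to 611 ± 29.4 RPKM (2.51, limma adjusted p = 1.78e-11). The exception was Cbs, of the transsulfuration pathway, at -1.74. Among 8 transporters tested, 7 rose over 2-fold, with Slc7a5 (3.98), Slc6a9 (3.64) and Slc3a2 (2.47) highest. The other, Slc38a2, fell from 218.5 ± 8.86 to 169.9 ± 10.0 RPKM (SD, n = 2; -0.36, limma adjusted p = 0.000119). Of the 20 cytosolic aminoacyl-tRNA synthetases, 14 rose over 2-fold, led by Wars (2.30), Nars (2.04) and Vars (2.02), and 19 rose at any fold. Qars fell (-0.52, limma adjusted p = 5.59e-06).

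The brakes on mTORC1 and on cap-dependent translation split. Eif4ebp1, which holds back the cap-binding factor, rose from 102.6 ± 1.13 to 553 ± 18.0 RPKM (SD, n = 2; log2 fold change 2.42, limma adjusted p = 8.07e-12). Sesn3 fell from 95.2 ± 0.281 to 16.5 ± 0.563 RPKM (-2.49, adjusted p = 1.25e-11) and Sesn1 from 15.7 ± 0.804 to 3.17 ± 0.526 RPKM (-2.15, adjusted p = 4.29e-09), while their relative Sesn2, the member, lay higher. In DMSO Sesn3 was the highest of these sestrins, and with T-5224 Sesn2 and Sesn3 were at like levels (17.4 and 16.5 RPKM).

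Of 6 genes of the CHOP-linked death and ER oxidase list, Tnfrsf10b, the death receptor DR5 (1.30), and Ero1l (1.13) rose over 2-fold, and the list median was 0.30. The others did not share a direction. Bcl2l11 fell from 4.235 to 1.896 RPKM (group means; log2 fold change -0.985, limma adjusted p = 4.27e-06), just short of a call. Bcl2 (0.37) and Pmaip1 (0.22) rose by less than 2-fold, and Bbc3 did not pass (-0.02, adjusted p = 0.832). All 4 secreted factors rose, Fgf21 from 0.666 ± 0.221 to 26.5 ± 0.523 RPKM, Gdf15 from 0.102 ± 0.143 to 11.7 ± 0.007 RPKM and Stc2 from 0.127 ± 0.0813 to 9.35 ± 0.0219 RPKM (SD, n = 2). Since these passed the filter only through the T-5224 libraries, their direction was fixed. Vegfa, which passed in both groups, had a log2 fold change of 1.36 (limma adjusted p = 2.54e-09). Among 11 autophagy genes, Sqstm1, the cargo receptor p62, rose from 221 ± 3.56 to 1161 ± 35.8 RPKM (2.39) and Map1lc3b fell (-1.19), with a median of 0.15. At any fold 5 of these genes rose and 3 fell (limma, adjusted p under 0.05), Nbr1 (-0.82) and Gabarap (-0.44) along with Map1lc3b. All 19 ER chaperones and genes of the other unfolded protein arms rose, 13 of them over 2-fold. Hspa5, the chaperone BiP, rose from 83.4 ± 4.73 to 1190 ± 4.1 RPKM (3.83, limma adjusted p = 4.68e-13), followed by Herpud1 (2.90) and Manf (2.17). Of 6 mitochondrial chaperones and proteases, 4 rose over 2-fold, with Lonp1 (1.96), Hspa9 (1.89) and Clpp (1.40) highest. At any fold 5 rose and 1, Yme1l1, fell (-0.38, limma adjusted p = 0.001).

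With SB431542, 116 of the pathway genes were tested and 0 passed the 2-fold rule in either direction (limma). At an unadjusted p under 0.05 with the same limit on fold change the count was also 0. Without that limit 20 (17.2%) rose and 9 (7.76%) fell, beside 10.2% and 10.0% of all genes, with a median log2 fold change of 0.05. Only 6 of those that rose (Bcl2, Ddit4l, Mthfd2, Psat1, Slc7a1 and Slc7a5) and 3 of those that fell (Nbr1, Sesn3 and Xbp1) did so whichever library was left out, and Ddit4l passed the filter on low values only through its SB431542 libraries. Of these names Bcl2, Ddit4l, Psat1, Slc7a1, Nbr1 and Xbp1 lie outside the naming rule and were chosen after their values were seen. Amino acid synthesis held 7 of the genes that rose, of 14, with a median of 0.33. Psat1 rose from 132.6 ± 9.89 to 224 ± 9.99 RPKM (SD, n = 3; 0.76, adjusted p = 0.00069) and Mthfd2 from 79.0 ± 5.34 to 109.6 ± 4.58 RPKM (0.47, adjusted p = 0.0037). Slc7a5 rose by 0.72 on the log2 scale (adjusted p = 0.00491). No gene of the ER list rose, and Xbp1 fell from 17.5 ± 2.47 to 10.4 ± 0.886 RPKM (-0.71, adjusted p = 0.00616).

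Among genes other than the members, those whose profile over all 10 libraries came closest to the median profile of the members were Stbd1, Gadd45a, Aldh1l2, Hmox1 and 2410006H16Rik, with a root mean square distance of 0.0701, 0.112, 0.137, 0.171 and 0.194 on the log2 scale. They were found by this likeness and are given without a test. The members' own distances ran from 0.221 (Chac1) to 1.44 (Atf5). Stbd1, a glycogen-binding protein, was at 10.3 and 10.0 RPKM in DMSO and at 174 and 176 RPKM with T-5224. Gadd45a, a stress-induced growth arrest gene, was at 8.44 and 9.63 RPKM in DMSO and at 180.2 and 180.1 RPKM with T-5224. Hmox1, heme oxygenase, was at 22.2 and 21.5 RPKM in DMSO and at 534 and 482 RPKM with T-5224. With SB431542 all 5 overlapped their controls, and their log2 fold changes lay between -0.002 and 0.24.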

How the data were processed

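Expression in ASZ001 cells came from 2 tables, each normalized on its own. The authors prepared TruSeq Stranded mRNA libraries, aligned reads with TopHat to mm9 and deposited RPKM values made with HOMER. Rows whose symbol had become a date (22 and 23) were dropped. Members and lists were chosen with earlier results of these data known. Within a table, genes whose mean RPKM reached 1 were tested for a difference between inhibitor and DMSO by limma 3.58.1 (R 4.3.3, empirical Bayes with a trend, values as log2(RPKM + 0.5)), and p-values were adjusted over all of them by Benjamini-Hochberg. Fold changes on this scale understate those of low genes. The SEs and p-values rest on the spread between the biological replicates of a single line. The empirical Bayes step draws this spread toward that of other genes of like level. With so few libraries per group, an SE or p-value is therefore not a measure of the gene's own spread alone. A call needed an adjusted p under 0.05 and a change over 2-fold. The DMSO columns of the T-5224 table, numbered 1 and 2, are labelled 4 and 5 in the series, so single libraries were not matched to labels beyond their group. Reads per library were worked out from the steps between the RPKM values of short genes. The genes named by rule were the members, up to 3 called genes per list and direction, the eIF2alpha kinases, Ppp1r15b, Asns and the 5 genes closest in profile to the members. Other pathway genes were named after their values were seen. Copies of the members, Eif2s3x and Ppp1cc elsewhere in the genome were sought with minimap2 2.31. Positions are from GENCODE on NCBIM37, the assembly of mm9, and promoters from RefSeq on GRCm38.p6. Alternatives were other pseudocounts, filters, scalings and call rules, no trend, a replicate block and each library left out. The script was tested on simulated data.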

Additional observations from a re-analysis of the deposited data

How the results depend on the processing

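Members called with T-5224 were 9 higher and 0 lower. With all libraries kept, this changed only without a limit on the fold change, where Atf5 made it 10. Leaving a library out of this experiment left 1 library in a group, so only fold changes are read from those fits. In them the log2 fold change was 1.12 to 1.25 for Sesn2, the called member closest to 2-fold. For Atf5 it was 0.91 to 0.99. With SB431542 the single member called lower, Nupr1, depended on DMSO replicate 1 (0 to 1 with each library left out). Counts that moved by over 1.5 times were these. With a mean RPKM of at least 5, 742 genes fell with T-5224 (1144 otherwise), and 10 rose and 41 fell with SB431542 (25 and 63 otherwise). With pseudocounts of 0.1 and 1, 38 and 12 genes rose with SB431542, and 1 pathway gene rose with the pseudocount of 0.1. Without a limit on the fold change, 4356 genes rose and 4260 fell with T-5224, 16 pathway genes among the latter, and 1107 rose and 1085 fell with SB431542, with 20 and 9 pathway genes and 3 members higher. The cause was not tested. In the SB431542 experiment, same-numbered libraries had correlations of -0.148, 0.151 and -0.095 in their deviations from the group means. Only the libraries numbered 2 correlated best with each other. With 3 libraries per group, and DMSO replicate 1 apart from the others, this check cannot tell whether the numbers pair the samples. With the replicate block 25 genes rose and 71 fell, 0 members were called higher and 1 lower, and 13 pathway genes in place of 20 rose and 3 in place of 9 fell at any fold. No replicate block was fitted for T-5224, whose labels share no replicate numbers between groups; the numbers of the table's columns were not used to pair libraries. Alternatives for single genes outside the members were added after the data were seen. With SB431542, 45 values lost and 13 gained an adjusted p under 0.05. No such count is given for T-5224, where leaving a library out left 1 library in a group. With so few libraries per group, an exact permutation test of 2 against 2 cannot go below 0.333, nor of 3 against 3 below 0.1.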

Other observations

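Between the DMSO libraries of the separately normalized tables, 108 of 10479 genes were over 10-fold higher in the SB431542 table and 8 were over 10-fold higher in the T-5224 table. A pathway gene of each of the eIF2 and phosphatase lists was among the former. Eif2s3x, the gamma subunit of eIF2, was at 3.55 RPKM in the T-5224 table and at 49.7 RPKM in the SB431542 table, and Ppp1cc, a catalytic subunit of protein phosphatase 1, was at 9.73 and 104.9 RPKM. Both were chosen after their values were seen. Transcripts of both have near-identical copies elsewhere in the NCBIM37 genome, 1 place for Eif2s3x (96.0% of the transcript at 99.9% identity) and 2 places for Ppp1cc (up to 97.2% at 99.8%), so their levels are uncertain. The members had 0 such places each, at a minimum of 30% of the transcript and 80% identity. The part of these copies in the difference between tables was not tested.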
